A study of Drosophila melanogaster with 6 samples.

Results

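Yorkie (Yki) binding was examined at the neighbouring lola and psq loci on chromosome arm 2R of Drosophila melanogaster. The members are all deposited Yki peaks that overlap 2R between 6.365 and 6.515 Mb (release 5) by at least 1 bp, a window of 150 kb named for these genes. It holds 17 of the 5136 peaks in the list and 17 of the 613 on 2R. The window was chosen by measured values, the positions and scores of its peaks, among them a run of 13 known from the same list. Their number, spacing, widths and scores are therefore a description, with no test.

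Embryos aged 8 to 16 h were profiled by ChIP-seq, in which DNA crosslinked to a protein is precipitated with an antibody and sequenced. There were 3 Yki ChIP libraries, made with a crude rabbit polyclonal antiserum called Yki91 that was raised against full-length Yki, and 3 input libraries of unprecipitated DNA. All 6 libraries came from the same Y cn bw sp strain, and no mutant or treatment was compared. Its labelled alleles are the body and eye markers y[1], cn[1], bw[1] and sp[1], the homeobox alleles oc[R3.2] and lab[R4.2], the gustatory receptor alleles Gr22b[1] and Gr22d[1], the opsin allele Rh6[1], and GstD5[1], LysC[1], CG33964[R4.2] and MstProx[1]. Whether replicate libraries derive from separate collections of embryos is not stated in the labels. The chromatin came from whole embryos, so a site bound in few cells and a site bound weakly in many cannot be told apart.

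Yki is the coactivator that the Hippo pathway restrains to limit tissue growth. It does not bind DNA itself and reaches its sites through partners, chiefly the TEAD protein Scalloped. The gene lola (longitudinals lacking) encodes a large family of transcription factor isoforms that share an N-terminal BTB domain, a protein-protein interaction domain, and differ in their C-terminal zinc fingers. Its products act in axon growth and guidance and in keeping neurons differentiated. The gene psq (pipsqueak) encodes BTB-domain proteins whose Psq-type DNA-binding domain recognises GA-rich DNA of the kind found in Polycomb response elements. It is required for patterning of the oocyte and the embryo and for retinal cell fates. Overexpression of both genes together with the Notch ligand Delta drives eye tumours in the Eyeful line, and the gene table used here carries eyeful as a synonym of both.

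The positions of genes in release 5 were not used here, so no peak was assigned to lola, to psq or to an exon, intron or start site of either. The release 6 gene table (Release 6 plus ISO1 MT) served for names and order alone. In it lola (Dmel_CG12052) and psq (Dmel_CG2368) have no other protein-coding gene between them in order of start position. The 6 genes listed between them are all RNA genes: 4 small nucleolar RNAs named snoRNA:lola-a to snoRNA:lola-d, the antisense RNA asRNA:CR45135 and the long noncoding RNA lncRNA:acal, known for its role in dorsal closure of the embryo. The protein-coding genes nearest in that order are Pef and trsn on the lola side and CG11883 and Git on the psq side.

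Yki peaks in the window were strongly uneven in position. They formed 3 groups separated by long stretches without a peak: 2 peaks near the lower edge, the run of 13 peaks in the middle and 2 peaks near the upper edge. The middle run reached from 6421568 to 6452103, a span of 30.5 kb or 20.4% of the window, and held 13 of the 17 peaks and 79.9% of the bases under peaks. The stretch before it was 48.4 kb long and the stretch after it 52.9 kb. Gaps of that size were common on the arm: of the 594 other gaps between adjacent peaks on 2R, whose median was 17.6 kb, 24.2% were at least as long as the shorter stretch and 22.1% at least as long as the longer one.

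**Figure D1:**
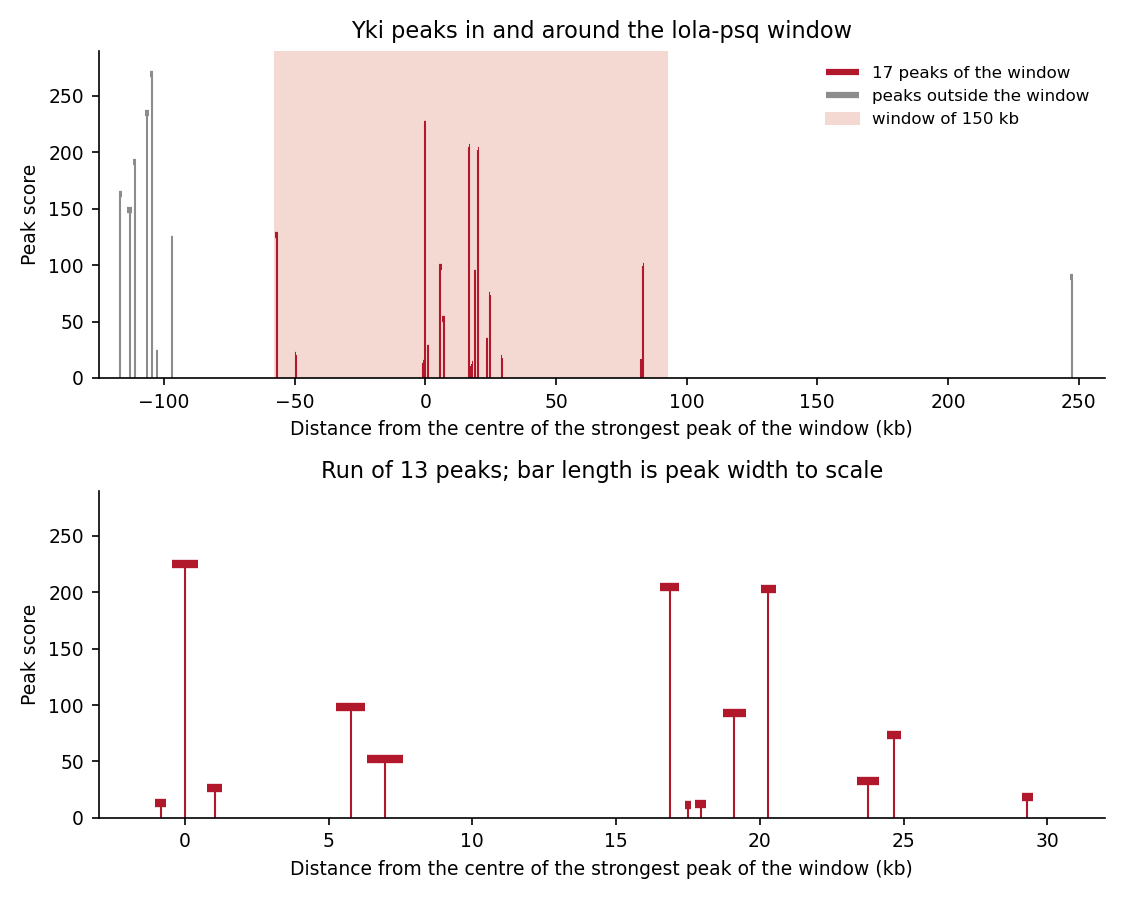
Score of each Yki peak (vertical axis) against its distance in kb from the centre of the strongest peak of the window. The upper panel shows the window (shaded) with its 17 peaks, the 7 peaks of the nearest run below it and the next peak above it, and the lower panel shows the run of 13 with peak widths to scale. The 3 peaks above a score of 200 in the window stand within 20.3 kb of each other.

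The lower group began right at the edge of the window. Its first peak, at 6365186 to 6366144, started 186 bp inside the edge, was 959 bp wide and had a score of 126.56, the fourth highest of the 17. The score is the value that the authors' peak caller gave each peak. No source used here gives its scale, so it serves to rank peaks within this list. A weaker peak of 354 bp with a score of 20.44 lay 6684 bp further on, at 6372829 to 6373182.

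The strongest Yki peak of the window was the second peak of the middle run. That peak, at 6422167 to 6423056, was 890 bp wide and had a score of 225.25, rank 168 in the whole list and 26 on 2R. Weak peaks lay on both sides of it: 202 bp before it a peak of 397 bp at 6421568 to 6421964 with a score of 13.37, and 325 bp after it a peak of 527 bp at 6423382 to 6423908 with 26.69. The strongest site of the window was thus bordered on each side by a peak from the weaker 50% of the list.

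The next pair of peaks was the widest in the window and nearly continuous. A peak of 1019 bp at 6427866 to 6428884 had a score of 98.59. After only 73 bp, the shortest gap among the members, came the widest member, 1227 bp at 6428958 to 6430184, with a score of 51.93. Together they spanned 2.32 kb. The widest member ranked 9 of 17 by score, at the median of the window, so the widest peak was not the strongest.

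A gap of 8.97 kb, the longest within the run, led to the largest group of closely spaced peaks, 5 within 4.03 kb from 6439156 to 6443180. This part held the second and the third strongest peaks of the window, a peak of 632 bp at 6439156 to 6439787 with a score of 205.01 and a peak of 541 bp at 6442640 to 6443180 with 202.4. They ranked 29 and 32 on 2R. Between them lay a peak of 212 bp at 6440004 to 6440215 with 11.01, the narrowest and weakest of the window. The other peaks between them were one of 373 bp at 6440373 to 6440745 with 12.04 and one of 789 bp at 6441334 to 6442122 with 92.72. High and low scores stood side by side here as they did around the strongest peak.

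The run ended with 3 peaks of lower score. Those at 6446003 to 6446771 and at 6447022 to 6447511 were 769 and 490 bp wide with scores of 32.6 and 73.22, separated by 250 bp. The last, at 6451729 to 6452103, was 375 bp wide with a score of 18.11. After the third strongest peak, no member of the run or of the upper group scored above 100. The upper group comprised a peak of 237 bp at 6505008 to 6505244 with 16.37 and, 519 bp further on, a peak of 529 bp at 6505764 to 6506292 with 99.09, the fifth highest of the window.

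The 17 peaks comprised both strong and weak sites. The strongest 25% of the whole list, scores of at least 72.8, included 8 members, or 47.1% (exact Clopper-Pearson 95% interval 23.0 to 72.2%, covering counting error over peaks only). The lowest of these 8 scores, 73.22, lay just above the threshold. By definition 25% of the whole list belong to this class. The share was 24.8% over the other 596 peaks of 2R and 23.5% over the other 3165 peaks of the 6 chromosome arms (2L, 2R, 3L, 3R, 4 and X). The stronger 50% of the list held 10 members, or 58.8%, against 52.3% on the rest of 2R and 50.5% on the rest of the arms. At the lower end, 7 members were in the weaker 50% of the list, with scores from 11.01 to 26.69, and 2 members lay between the classes, with 32.6 and 51.93. The median score of the window was 51.93 (order-statistic 95% interval 18.11 to 99.09), against 32.2 on the rest of 2R (28.98 to 37.61) and 30.6 on the rest of the arms (29.13 to 31.96). These intervals give the uncertainty of a share or a median over peaks of a single list, which are not replicates. No test is drawn from them. They are not the spread of the scores, whose quartiles were 18.11 and 99.09 in the window and 17.2 and 72.6 on the rest of 2R.

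Members with high scores were also wider. The 8 members of the strongest 25% were 490 to 1019 bp wide with a median of 710.5 bp, and the 7 members of the weaker 50% were 212 to 527 bp wide with a median of 373 bp. The median width of all 17 was 529 bp (interval 375 to 789 bp), against 442 bp on the rest of 2R (411 to 473 bp) and 430 bp on the rest of the arms (417 to 444 bp). The Spearman correlation of width and score across the 17 members was 0.74, against 0.75 across the other peaks of 2R. Pearson's was 0.44, against 0.56. Peaks of one list share libraries and caller and are not independent replicates, so these correlations are descriptive.

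**Figure D2:**
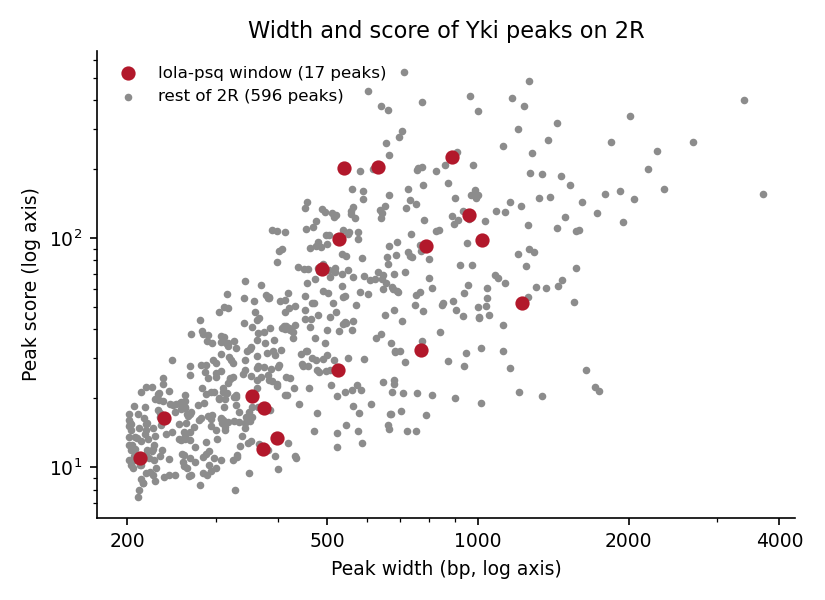
Score against width in bp of the 17 peaks of the window (large points) and the other 596 peaks of 2R (small points), both axes on a log scale. The members lie within the cloud of the arm, from 212 bp with a score of 11.01 to 1227 bp with 51.93 and 890 bp with 225.25.

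Close neighbours in the window differed widely in score. All 17 members had another peak within 10 kb, which was true of 59.7% of the other peaks of 2R and 63.2% of those on the rest of the arms. Of the 17 members 10, or 58.8%, had another peak within 500 bp, where the share was 17.6% on the rest of 2R and 19.7% on the rest of the arms. These members formed 6 adjacent pairs, which share some peaks. The median of the higher scores in these pairs was 151.8 and that of the lower scores 20.03. The corresponding medians were 40.3 and 16.7 in the 57 such pairs on the rest of 2R. Within a pair the scores differed by a median of 120.33 in the window, against 21.6 on the rest of 2R. The differences on the rest of 2R ran from 0.03 to 421.71. The differences in the window ran from 1.03, between the weak peaks at 6440004 and 6440373, to 211.88, beside the strongest peak. In 3 of the 6 pairs, all of which contain the strongest or the second strongest member, the difference was at least 194.0, and in the other 3 it was at most 46.66. Because the window was chosen with its scores known, and its pairs overlap, no test is attached to this contrast.

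Strong sites stood close together. The 3 strongest members, with scores of 202.4 or more, all had another peak of that strength within 25 kb. The same was true of 10 of the 30 such peaks on the rest of 2R, or 33.3%, and of 28 of 154, or 18.2%, on the rest of the arms. This threshold and distance were taken from the members themselves, so that the window meets them by construction.

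Set against windows of equal size, the lola-psq window held many Yki peaks, and many of the strongest class. The other windows were laid end to end, and those that overlap the lola-psq window were left out. The run of 7 peaks at 6305366 to 6326000, 6 of them in the strongest 25%, therefore fell in no compared window. A window left out held that run with much of the lola-psq run. It had more peaks, and more of the strongest 25%, than the lola-psq window. Of the 138 compared windows of 150 kb on 2R, 0.00% had 17 or more peaks. Their median was 4 peaks, and the highest number was 14. Over all 6 arms, 4 of 796 windows, or 0.503%, reached 17 peaks. These 4 were the windows on 2L from 21300143 to 21450143 and from 21450144 to 21600144, with 17 and 43 peaks, the first window of 3L with 23, and a window on X from 1800013 to 1950013 with 18. Median scores there were 27.2 and 18.45 in the 2L windows, 18.4 on 3L and 45.4 on X, below the 51.93 of the lola-psq window in each case. Counting only peaks of the strongest 25%, the 8 of the window were reached by 0.00% of the compared windows of 2R, where the most was 7. On the arms 2 compared windows, or 0.251%, reached 8. Those were on 2L from 12450084 to 12600084, with 10, and on X from 3600025 to 3750025, with 8. The margin over the compared windows of 2R was small: the lowest of the 8 scores was 73.22, against a threshold of 72.8. The window of 2R with 7, from 6000041 to 6150041, had 10 peaks in all and a median score of 147.07. The other windows start at fixed positions, while the lola-psq window was placed around its peaks, which raises its count relative to theirs.

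**Figure D3:**
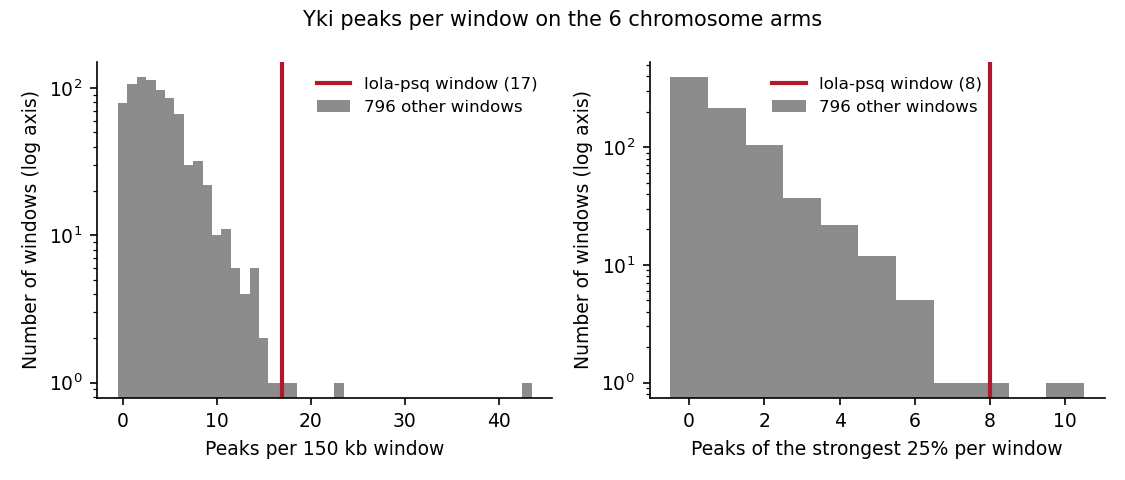
Number of windows of 150 kb on the 6 arms (log axis) by the number of Yki peaks they hold (left) and by the number of peaks of the strongest 25% (right). The vertical line marks the lola-psq window, with 17 peaks on the left and 8 on the right, among 796 other windows that do not overlap it.

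Peaks covered 10.3 kb, or 6.88%, of the window, with a mean score of 78.0 per peak, against 1.61% of the rest of 2R, with a mean score of 61.5. Within the run of 13 the covered share was 27.0%. The window held 2.77% of the peaks of 2R on 0.709% of the arm's length, and 5.13% of the arm's peaks of the strongest 25%. Both shares follow from the choice of the window.

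The run of 13 was the longest on 2R when neighbours were joined at gaps of up to 10 kb, and the fourth longest on the 6 arms by number of peaks. Of its 13 peaks, 6 belonged to the strongest 25% of the list, and its median score was 51.93. The runs with more peaks were one of 39 on 2L at 21451242 to 21541317, one of 17 at the start of 3L and one of 15 on 3R at 17405861 to 17466212. In the first 2 of them peaks covered 56.2% and 89.55% of the span, against 27.0% in the lola-psq run. The highest scores in these 2 runs were 70.48 and 23.12, and neither held a peak of the strongest 25%. The run on 3R had 6 such peaks, a highest score of 221.97 and a median of 37.7, spread over 60.4 kb where the lola-psq run took 30.5 kb. The runs next in number were 12 peaks on 2L at 21417341 to 21440435, topped by a score of 54.46, and 11 peaks on 2L at 16513585 to 16548478, with 270.82 and 3 peaks of the strongest 25%. Several shorter runs had higher medians and a similar or larger share of strong peaks. A run of 10 on X at 3566124 to 3591307 had a median score of 77.4 with 5 peaks of the strongest 25%. A run of 9 on X at 2187341 to 2200704 had a median of 128.72, also with 5, and a run of 8 on 3R at 7584157 to 7606431 had a median of 82.6 with 4 and a highest score of 425.36. Strong sites within a long run were therefore not particular to the lola-psq window. The density along the lola-psq run was 4.26 peaks per 10 kb, against 8.68 in the run of 17 on 3L, 5.20 in the run of 12 on 2L, 4.33 in the run of 39 on 2L and 2.49 in the run of 15 on 3R. The runs of 9 on X had 6.74 and 4.62 peaks per 10 kb, and a run of 7 on 2R at 10777883 to 10785391 had 9.32.

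**Figure D4:**
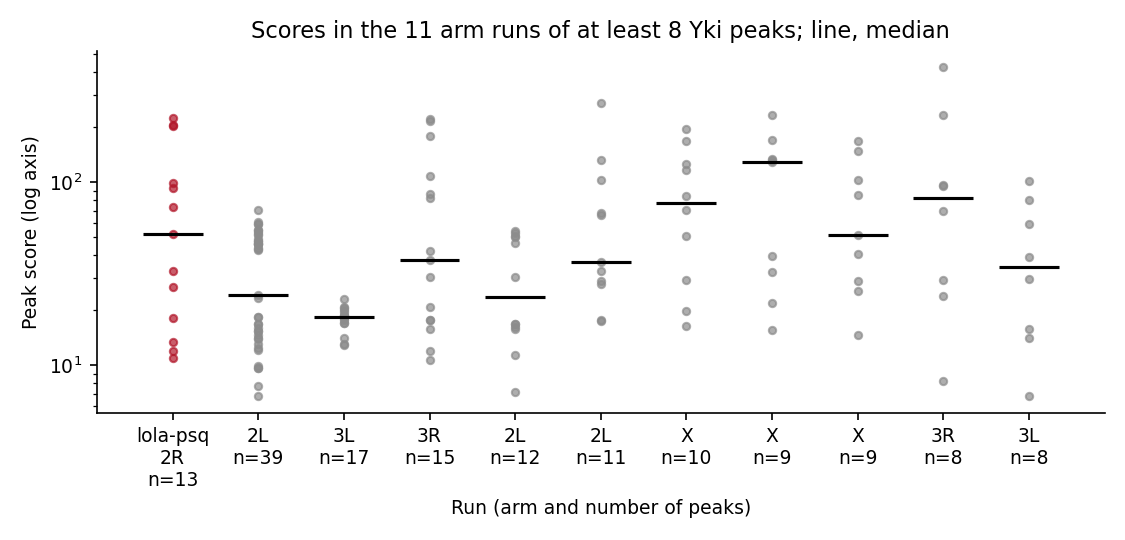
Peak scores (log axis) in the 11 runs of at least 8 Yki peaks on the 6 arms, with the lola-psq run on 2R at the left and the others in order of peak number, a point per peak and a line at the median. The lola-psq run spans scores from 11.01 to 225.25 around a median of 51.93, while the run of 17 on 3L lies between 12.91 and 23.12.

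The flanks of the window were unlike each other. Below it, the nearest peak outside lay at 6325360 to 6326000 with a score of 123.09, 39.2 kb before the first member. It was the last of 7 peaks in a run from 6305366 to 6326000 that was stronger than the lola-psq run, with a median score of 162.69 and a highest score of 269.35. All but one of its peaks, with 22.27, belonged to the strongest 25% of the list. Another run of 7 peaks, with a median score of 150.49, lay at 6098386 to 6126819. These runs and the lola-psq run were among the 4 longest on 2R, where the runs of 7 tie with one at 10777883 to 10785391 whose highest score was 18.42, and they lay within 354 kb of one another. Above the window the next peak followed only at 6669288 to 6670550, with a score of 89.35, 163.0 kb after the last member. Of the 594 other gaps on 2R, 21, or 3.54%, were at least that long. The mappability of this stretch was not examined.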

How the data were processed

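The authors deposited 1 peak list for the 3 Yki ChIP and 3 input libraries, with a start, an end and 1 score per peak, and no value per library. Per the file headers, MACS made the peaks, on coordinates of FlyBase release 5. Build BDGP5, MACS2, BWA and CASAVA (1.7.0.3 and 1.7.0.2) are named in the submitters' processing notes. How libraries were combined and which threshold was applied is not stated in the labels or headers. The score deposited by the authors has no stated scale. Reads per library are unknown, so depth and the spread between replicates cannot be stated.

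Members were found by overlap. Runs joined peaks at gaps of up to 10 kb, and gaps are the bases between peaks. Arm lengths were taken as the furthest peak end. Run finding and median intervals were tested on simulated data. The members and comparisons were chosen with earlier results of these data known. All 17 members are given. The planned promoter and protein descriptions were not run, since those tables were not used here, and no sequences are shown. The planned list of other BTB genes was not used. The tools were matplotlib 3.10.9, scipy 1.17.1, pandas 2.3.3, numpy 2.4.6 and Python 3.11.15.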

Additional observations from a re-analysis of the deposited data

How the results depend on the processing

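Under 12 of 18 alternatives a count stayed within 1.5 times the reported one, or a median or share within its 95% interval. Some of these 12 could not have come out otherwise, as stated below. These intervals are wide for the 17 peaks and narrow for the share of bases covered, so the tolerance differed between results. For that share each base was counted as a separate unit, although bases come in whole peaks, which makes its interval too narrow. The window narrowed by 10 kb at each end held 13 peaks. Widening the window by 10 kb, or taking only peaks wholly inside it, returned the same 17 peaks. Their count and medians could not differ there. With peaks joined within 200 bp the count was 15. In the strongest 50% and 25% of the list the window kept 10 and 8 peaks, which follows from the smaller lists. The longest run had 8 peaks when gaps of up to 5 kb were joined, since its gap of 8.97 kb then split it. It also had 8 peaks in the strongest 50% of the list. Joining at gaps of up to 20 kb had to return the same 13, because the stretches beside the run were 48.4 and 52.9 kb long. The share of the window under peaks, reported as 6.88%, was 6.34% with the window narrowed by 10 kb at each end and 6.07% with it widened, since narrowing removed 4 members and widening added length without a peak. The median score was 42.3 without the strongest member. With the strongest 25% counted over 2R, 41.2% of the members belonged to it, against 47.1% over the whole list. No paired analysis was possible because each peak has a single score for all libraries, which also means that no replicate could be left out. With read numbers unknown, sites too weak to be called at this depth cannot be counted.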
